A study of Mus musculus with 9 samples.

Results

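Bach1 and Bach2, the 2 Bach transcription repressors of the mouse, were described across the 9 libraries of a stroke experiment. They are 2 of the 55385 genes in the deposited expression table, found there by symbol, and they were chosen for description from their values in these libraries, so their levels and fold changes are given as a description, with no test. RNA came from a brain hemisphere of male C57BL/6 mice aged 8 to 10 weeks, the ischemic one where there was ischemia, with 3 libraries in each of 3 groups. The tMCAO group, named for transient occlusion of the middle cerebral artery, had that artery closed on the right side by a coated filament for 90 min, after which blood flow returned. Mice of the celastrol group were occluded in the same way and were given 4.5 mg/kg of celastrol, a triterpenoid from plants, by intraperitoneal injection when reperfusion began. The sham group had the operation without the occlusion. The sources used here do not give the delay between reperfusion and sampling, a vehicle injection in the other groups, or how many animals a library holds. The p-values below therefore measure only the spread among libraries, which may be technical.

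BACH1 and BACH2 are proteins with a BTB domain, through which they pair with other proteins, and a basic leucine zipper of the CNC (cap'n'collar) type, through which they bind DNA as partners of the small Maf proteins. They occupy Maf recognition elements, which overlap the antioxidant response elements used by the activator NRF2 (gene Nfe2l2), and they hold down the genes there. BACH1 binds heme, which releases it from DNA and leads to its export and breakdown, and its best known targets are heme oxygenase 1 (Hmox1), the ferritin genes and enzymes of glutathione and NADPH metabolism. BACH2 is best known from B and T lymphocytes, where it represses Prdm1, and it is also made in neurons.

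The sequences just before the RefSeq start of each gene are shown because the levels of the members differed in opposite directions between sham and tMCAO. A second reason is that 3 genes that BACH1 represses hold a full recognition site before a RefSeq start. Sequences are RefSeq's, on GRCm38.p6 (the mm10 build). Bach1 (ENSMUSG00000025612) lies at chr16:87698945-87733346 on the plus strand and has 3 annotated transcripts. The 250 bases before its RefSeq start, chr16:87698704-87698953, are 69.2% G or C with 25 CpG pairs, against medians of 52.4% and 6 over 32851 RefSeq promoter entries. Bach2 (ENSMUSG00000040270) lies at chr4:32238804-32586104 on the plus strand, has 7 annotated transcripts and spans 347.3 kb, beside 34.4 kb for Bach1. The 250 bases before its RefSeq start, chr4:32417185-32417434, are 50.4% G or C with 7 CpG pairs. That start is that of transcript ENSMUST00000171600, 178631 bases downstream of the outermost start of the gene, so the outer promoter is not shown. Capitals mark GGGCGG, the core of a GC box, in Bach1, and TGANNNNGC, the loose form of the antioxidant response element, in Bach2.
Bach1: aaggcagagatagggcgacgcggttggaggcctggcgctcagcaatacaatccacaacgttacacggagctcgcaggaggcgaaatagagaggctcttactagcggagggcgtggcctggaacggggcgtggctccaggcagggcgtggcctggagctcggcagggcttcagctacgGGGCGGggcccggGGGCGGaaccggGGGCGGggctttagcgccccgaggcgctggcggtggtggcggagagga
Bach2: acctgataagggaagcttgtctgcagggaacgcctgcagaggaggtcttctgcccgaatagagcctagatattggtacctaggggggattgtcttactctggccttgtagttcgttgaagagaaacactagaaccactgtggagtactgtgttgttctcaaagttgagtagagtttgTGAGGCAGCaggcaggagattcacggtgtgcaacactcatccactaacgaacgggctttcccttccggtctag
Bach1 held GGGCGG 3 times, at -73, -60 and -48 from the start, and no TGANNNNGC, while Bach2 held TGANNNNGC once, at -73, and no GGGCGG. Both strands were searched. The strict recognition site, written TGANTCAGC, and the AP-1 site TGACTCA, which can overlap it, were in neither window. Among 27025 genes with such a window, GGGCGG was in 35.4% and TGANNNNGC in 38.7%.

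Of 22 heme, iron and antioxidant genes listed as BACH1 targets, 16 had a RefSeq window; Hmox1, Slc40a1, Fech, Slc48a1, Gclc and Gsr had no entry. The strict site TGANTCAGC was in 3 of these 16 (18.8%) and in 1.17% of all genes. A gene counted if any of its entries held the site, and 5 of the 16 had several entries. The genes were listed as known BACH1 targets, so nothing is read from the larger share of a BACH1 site among them. The 3 sites are printed with 9 bases on each side, on the strand of the match and with the site in capitals.
Srxn1: aattcacccTGAGTCAGCggccgggcg
Osgin1: tcataagcgTGAGTCAGCaggggcccc
Prdx1: tacgggggaTGACTCAGCgctttccct
The Srxn1 site lies at chr2:152105470-152105496 on the plus strand, and that of Osgin1 at chr8:119437039-119437065 and that of Prdx1 at chr4:116685457-116685483 match on the minus strand. Their first bases stand at -45, -99 and -133 from the RefSeq start. The Osgin1 site lies inside the gene, which spans chr8:119434124-119446256 on the plus strand, so the start used for Osgin1 is an internal one. The looser TGANNNNGC, which includes every TGANTCAGC, was in 10 of the 16 (62.5%), and GGGCGG was in 14 (87.5%). The E-box CACGTG was in 1 of the 16 (6.25%) and in 6.86% of all genes. A match of letters says nothing of binding, and no binding data were analysed here.

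Levels are given as FPKM, which divides fragments by transcript length and library size, when genes are compared with each other. They are given as CPM, counts scaled to library size with TMM factors, when libraries are compared. Libraries held 60392960 to 75158625 estimated counts (median 68726348). A gene was tested where it reached 0.5 FPKM in at least 3 of the 9 libraries, which 16982 genes did. Both members passed, Bach2 only through the sham libraries and celastrol replicates 1 and 3, since no tMCAO library reached 0.5 FPKM. One library stood apart for both: celastrol replicate 2 lay near the sham libraries for Bach1 and at the tMCAO level for Bach2, so results that use the celastrol group are given with and without it.

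Bach1, the heme-sensing repressor, was low in sham and higher after occlusion. Its level was 2.54, 2.04 and 2.31 FPKM in the sham libraries 1, 2 and 3, then 5.31, 3.58 and 4.32 FPKM in the tMCAO libraries. In the celastrol libraries it was 4.69, 2.44 and 4.62 FPKM. Every tMCAO library lay above every sham library. Among the celastrol libraries, replicates 1 and 3 lay within the tMCAO range, and replicate 2 lay below every tMCAO library and within the sham range in FPKM. In CPM the means were 16.7 ± 1.44 in sham, 29.9 ± 5.94 in tMCAO and 27.1 ± 7.88 with celastrol (SD, n = 3 each). The log2 fold change of tMCAO against sham was 0.84 (SE 0.18, from the spread of log2 CPM), a 1.79-fold higher level. Celastrol against tMCAO gave -0.14 (SE 0.32), with overlapping groups, and its sign turned to 0.08 without celastrol replicate 2 and to 0.03 without tMCAO replicate 1. Leaving out tMCAO replicate 2 gave -0.27, and leaving out the celastrol libraries 1 or 3 gave -0.26 or -0.28. Celastrol against sham gave 0.71 (SE 0.28), or 1.63-fold, and 0.93 without celastrol replicate 2. In CPM every celastrol library lay above the sham libraries, replicate 2 by little: it had 18.1 CPM, and sham replicate 1 had 18.0.

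Bach2, the lymphoid and neuronal relative, was lower after occlusion, and by a larger factor. Sham libraries held 1.09, 1.19 and 1.02 FPKM, from 892, 837 and 694 estimated counts. The tMCAO libraries held 0.233, 0.136 and 0.218 FPKM, from 189, 109 and 151 counts. The celastrol libraries held 0.656, 0.210 and 0.556 FPKM, from 509, 160 and 472 counts. All tMCAO libraries lay below all sham libraries, and celastrol replicates 1 and 3 lay between the 2 groups, while celastrol replicate 2 lay inside the tMCAO range. Mean CPM was 12.9 ± 1.13 in sham, 2.14 ± 0.563 in tMCAO and 5.27 ± 2.41 with celastrol (SD, n = 3 each). Against sham, tMCAO had a log2 fold change of -2.59 (SE 0.25), a 6.00-fold lower level. Celastrol against tMCAO gave 1.30 (SE 0.52), a 2.46-fold higher mean whose groups overlapped through celastrol replicate 2, and 1.63 without that library. Celastrol against sham gave -1.29 (SE 0.47), a 2.44-fold lower level with every library lower, and -0.95 without celastrol replicate 2. On the log2(FPKM + 0.5) scale the same 3 differences of Bach2 were -1.20, 0.46 and -0.75, since the added constant is larger than its tMCAO level. An antisense gene inside Bach2, Bach2os, held at most 38 counts in a library. Fewer cells that make a transcript and less transcript per cell cannot be told apart in RNA from whole tissue.

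**Figure D1:**
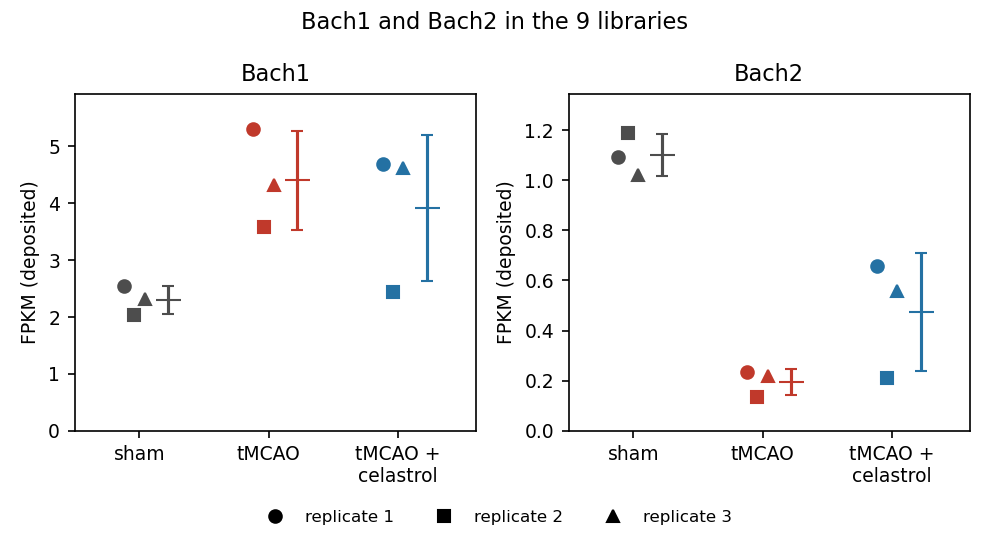
Deposited FPKM of Bach1 (left) and Bach2 (right) in each library, by group, with the marker shape giving the replicate number and the bar beside the points the mean and SD of 3 libraries. Bach1 is higher in every tMCAO library than in any sham library and Bach2 lower, and the square of celastrol replicate 2 sits at 2.44 FPKM for Bach1 and 0.210 FPKM for Bach2, below the other 2 celastrol libraries in both panels.

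The balance between the members separated the groups more fully than either level did. Per unit of transcript length, Bach1 exceeded Bach2 in every library: the ratio of their FPKM values was 2.32, 1.72 and 2.26 in sham. In tMCAO it was 22.8, 26.4 and 19.9, and with celastrol 7.16, 11.6 and 8.31. The 3 groups did not overlap in this ratio, and celastrol replicate 2, at the edge of its group for each gene alone, had the ratio nearest to tMCAO of the celastrol libraries but still lay below every tMCAO library. The means were 2.10 ± 0.335, 23.0 ± 3.28 and 9.02 ± 2.31 (SD, n = 3 each). The ratio was looked at after the levels were known and is a description of the chosen genes. Over all 9 libraries Pearson's r between the log2 CPM of Bach1 and Bach2 was -0.52 and Spearman's rho -0.52, over libraries that share their groups.

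**Figure D2:**
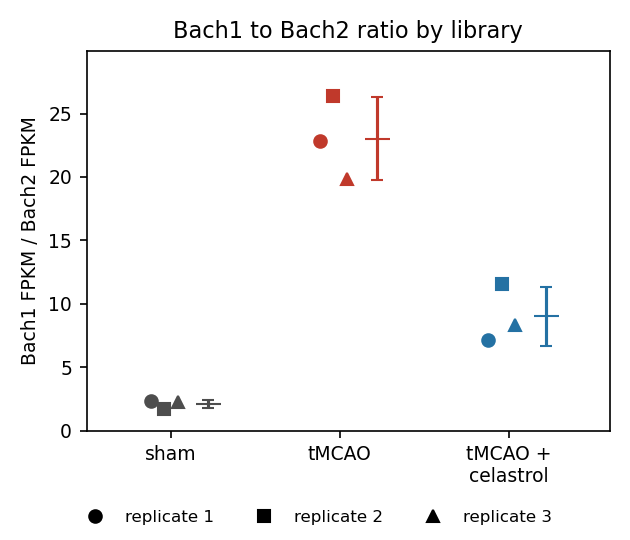
Ratio of the FPKM of Bach1 to that of Bach2 in each library, by group, with the mean and SD of 3 libraries beside the points. Sham libraries sit between 1.72 and 2.32, celastrol libraries between 7.16 and 11.6 and tMCAO libraries between 19.9 and 26.4.

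Against the whole table, few genes passed the test. A gene was called at a p under 0.05 from edgeR's quasi-likelihood test, adjusted over the 16982 genes by the Benjamini-Hochberg method. For tMCAO against sham it called 0 genes (0%), with 2534 at an unadjusted p under 0.05 (14.9%), while DESeq2's Wald test called 836 of 16957 (4.93%). For celastrol against tMCAO edgeR called 0 (0%), with 698 at an unadjusted p under 0.05 (4.11%), and DESeq2 called 19 of 16627 (0.114%). For celastrol against sham edgeR called 1 (0.00589%), with 1445 at an unadjusted p under 0.05 (8.51%), and DESeq2 called 380 of 16298 (2.33%). The gene called was the Fc receptor gene Fcgr4, named after its values were seen, with a log2 fold change of 4.34 and an edgeR adjusted p of 0.0323. Groups that did not overlap were common: every library was higher in 12.4% and lower in 11.1% of genes for tMCAO against sham, in 3.73% and 4.13% for celastrol against tMCAO, and in 7.89% and 5.54% for celastrol against sham. Bach1 and Bach2 were chosen from these values, so nothing is read from their place among those shares. The comparisons share libraries: tMCAO enters 2 of the 3, and so does sham.

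The genes around the Bach proteins were described through 7 lists that together hold 78 genes, of which 70 were tested. Of these 70 genes, 34 overlap another gene of the table that holds counts, which is named below only for Ftl1 and Gclm. The overlapping gene holds more counts in Hmox2 (Cdip1, 148118 beside 38769) and Zbtb17 (Spen, 51065 beside 14941). So it does in Uros (Bccip, 23109 beside 10640) and Ppox (B4galt3, 21470 beside 10212). The levels of these genes are uncertain, and they enter the counts and medians of the lists. The SE given for a listed gene is the size of its log2 fold change over the square root of edgeR's F. It is not the SE from the spread of log2 CPM given for Bach1 and Bach2, so these are not comparable. By edgeR's adjusted p 0 of the 70 were called in each of the 3 comparisons. At an unadjusted p under 0.05 there were 22 (19 higher, 3 lower) for tMCAO against sham, 31.4% beside 14.9% of all genes. There were 2 (both higher) for celastrol against tMCAO, 2.86% beside 4.11%. For celastrol against sham there were 15 (14 higher, 1 lower), 21.4% beside 8.51%. DESeq2 called 9, all higher, for tMCAO against sham (12.9% of the 70, beside 4.93% of all genes), 0 for celastrol against tMCAO (beside 0.114%) and 6, all higher, for celastrol against sham (8.57%, beside 2.33%). Of the 70, every library was higher in 18 for tMCAO against sham (25.7%, beside 12.4% of all genes). It was lower in 5 (7.14%, beside 11.1%). For celastrol against sham it was higher in 18 (25.7%, beside 7.89%) and lower in 4 (5.71%, beside 5.54%). For celastrol against tMCAO every library was higher in 3 (4.29%, beside 3.73%) and lower in 0 (beside 4.13%). The median log2 fold changes of the 70 were 0.07, 0.03 and 0.12 in the same order as the comparisons, beside 0.01, -0.00 and 0.00 over all genes tested. Without celastrol replicate 2, every library was higher in 27 of the 70 (38.6%, against 16.8% of all genes) for celastrol against sham and in 4 (5.71%, against 7.52%) for celastrol against tMCAO.

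**Figure D3:**
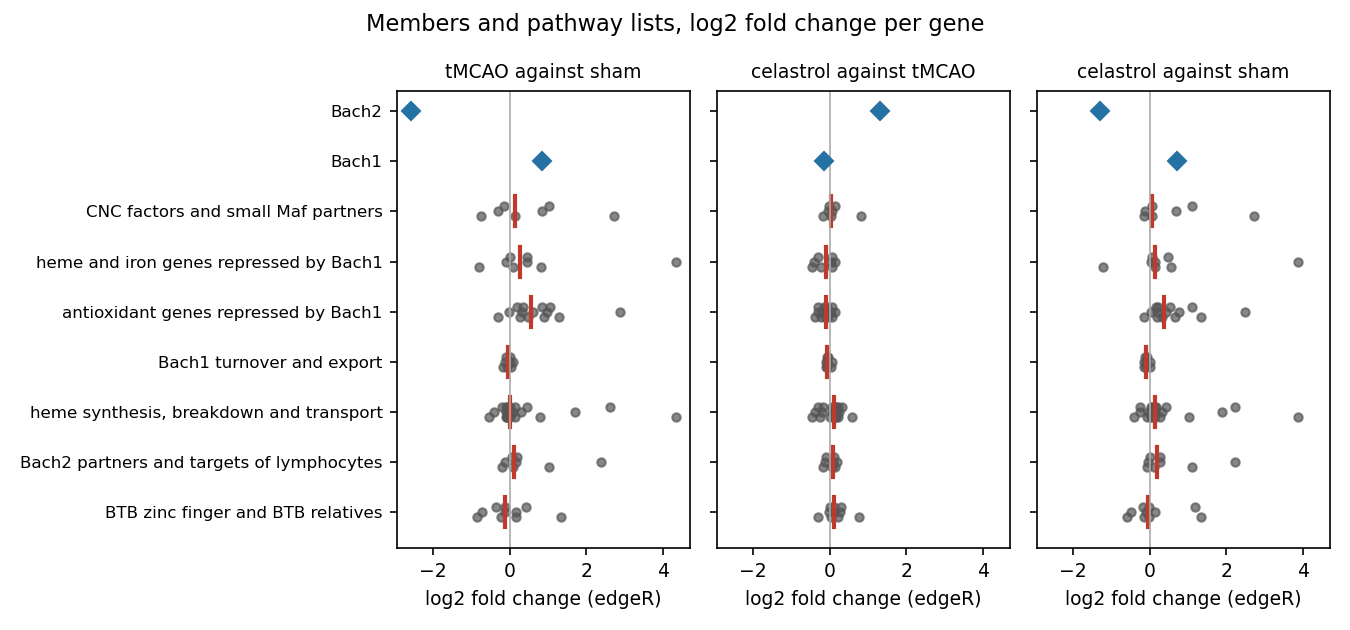
Log2 fold change from the edgeR fit for Bach1 and Bach2 (diamonds) and for each tested gene of the 7 lists (points, red bar at the list median), in the 3 comparisons. The antioxidant list has a median of 0.55 in the left panel (tMCAO against sham), -0.09 in the middle panel and 0.36 in the right panel.

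Among the DNA-binding partners and competitors, Nfe2l2 and Mafk had every tMCAO library above sham. Nfe2l2 (chr2:75675513-75704641, minus strand) encodes NRF2, the activator that competes with BACH1 for its sites, and its CPM was 18.8, 15.8 and 19.9 in sham, 32.4, 30.6 and 34.7 in tMCAO, and 38.5, 23.2 and 25.4 with celastrol. No tMCAO or celastrol library overlapped sham: the log2 fold changes were 0.84 (SE 0.20, edgeR adjusted p = 0.143) and 0.67 (SE 0.20, adjusted p = 0.359), the latter 0.41 without celastrol replicate 1. DESeq2 called the first. Mafk, a small Maf protein that pairs with BACH1, BACH2 and NRF2 alike, had 10.8 ± 1.55 CPM in sham, 22.0 ± 6.48 in tMCAO and 23.1 ± 7.71 with celastrol (SD, n = 3 each). Its log2 fold changes against sham were 1.02 (SE 0.30) and 1.09 (SE 0.30), with edgeR adjusted p = 0.204 and 0.334, and DESeq2 called both. Maff, a second small Maf, was 2.92, 0.659 and 2.16 CPM in sham, 16.1, 19.2 and 2.88 CPM in tMCAO and 14.4, 8.23 and 15.3 CPM with celastrol. Here tMCAO replicate 3 stayed at the sham level, and celastrol against sham gave 2.72 (SE 0.73, edgeR adjusted p = 0.316), which DESeq2 called. The most abundant small Maf, Mafg, had 105 ± 17.3, 85.5 ± 7.44 and 94.9 ± 4.59 CPM in sham, tMCAO and celastrol (SD, n = 3 each), with overlapping groups. Keap1, which holds NRF2 in the cytoplasm for degradation, had 56.8 ± 7.23, 62.1 ± 2.80 and 59.7 ± 4.11 CPM, and the CNC factor Nfe2l3 had 5.89 ± 0.890, 5.28 ± 1.15 and 5.38 ± 1.35 CPM, both with overlapping groups. Nfe2l1, another CNC activator, had 290 ± 183, 173 ± 168 and 303 ± 198 CPM, a spread within groups wider than any difference between them. Nfe2, the erythroid member, was too low to be tested. Of the 7 tested genes of this list, every library was higher in 2 for tMCAO against sham and in 3 for celastrol against sham, beside 12.4% and 7.89% of all genes, and lower in 0.

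Of the 8 heme and iron genes, Hmox1, which breaks down heme and is the classical BACH1 target (chr8:75093621-75100589, plus strand), had the largest difference. Its CPM was 5.64, 4.70 and 4.88 in sham, 107, 29.0 and 173 in tMCAO, and 164, 14.7 and 45.2 with celastrol. Every library of the occluded groups lay above sham, but values within each of them differed several times over, and celastrol replicate 2 was the lowest. The log2 fold changes against sham were 4.35 (SE 0.93, edgeR adjusted p = 0.128) for tMCAO and 3.88 (SE 0.91, adjusted p = 0.253) for celastrol, and DESeq2 called both. The second was 2.56 without celastrol replicate 1. Between celastrol and tMCAO the groups overlapped. Fth1, the ferritin heavy chain that stores iron, had 1340 ± 147 CPM in sham, 1833 ± 154 in tMCAO and 1865 ± 401 with celastrol (SD, n = 3 each), and tMCAO against sham gave 0.46 (SE 0.17, edgeR adjusted p = 0.286). Ftl1, the ferritin light chain, gave 0.80 (SE 0.31) for tMCAO against sham and 0.57 (SE 0.31) for celastrol against sham, with edgeR adjusted p = 0.299 and 0.673; these were 0.36 without tMCAO replicate 3 and 0.31 without celastrol replicate 1. Another row of the table, Gm22133, lies within Ftl1 on the same strand and holds 28176 counts beside 105504, so the level of Ftl1 is uncertain. Slc40a1, which exports iron from cells, had 7.29, 14.7 and 11.7 CPM in sham, 7.34, 4.86 and 7.16 in tMCAO and 4.84, 7.18 and 2.53 with celastrol. The tMCAO libraries overlapped sham, and the celastrol libraries lay below sham, replicate 2 by little (log2 fold change -1.21, SE 0.40, edgeR adjusted p = 0.420). Neither edgeR nor DESeq2 called it. Over the list, every library was higher in 3 of 8 for tMCAO against sham (median log2 fold change 0.26) and, for celastrol against sham, higher in 3 and lower in 1 (median 0.15). The shares over all genes were 12.4% for the first and 7.89% and 5.54% for the second.

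Of the 7 lists, the 14 antioxidant genes had the largest share of genes separated between tMCAO and sham. Every library was higher in 9 of 14 for tMCAO against sham (median log2 fold change 0.55) and in 6 of 14 for celastrol against sham (median 0.36), and lower in 0 of 14 in both. Over all genes, every library was higher in 12.4% and 7.89%. For celastrol against tMCAO the counts were 0 and 0, with a median of -0.09. Srxn1 encodes sulfiredoxin, which restores oxidised peroxiredoxins, and is one of the 3 genes with the strict site printed above. Its CPM was 123, 85.1 and 68.4 in sham, 196, 242 and 234 in tMCAO, and 345, 156 and 195 with celastrol, with no overlap between sham and either other group. Its log2 fold changes against sham were 1.28 (SE 0.31) and 1.33 (SE 0.31), with edgeR adjusted p = 0.153 and 0.252, and DESeq2 called both. Osgin1, a stress-induced growth inhibitor and the second gene with the site, was low, with 0.586, 0.270 and 0.329 CPM in sham, 2.50, 0.927 and 5.29 in tMCAO, and 4.49, 0.126 and 2.04 with celastrol. Its tMCAO libraries lay above sham (2.86, SE 1.07, edgeR adjusted p = 0.285), and celastrol replicate 2 lay below sham. Prdx1, a peroxiredoxin and the third gene with the site, had 111 ± 20.7, 138 ± 41.5 and 128 ± 45.8 CPM (SD, n = 3 each), with overlapping groups; it is named for its site, after its values were seen.

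Nqo1, a quinone reductase, gave 1.05 (SE 0.35, edgeR adjusted p = 0.238) for tMCAO against sham and 1.10 (SE 0.35, adjusted p = 0.399) for celastrol against sham, from 2.96 ± 0.425 CPM in sham to 6.13 ± 1.54 and 6.33 ± 2.84 (SD, n = 3 each). The second was 0.70 without celastrol replicate 1. Gclm, the modifier subunit of the enzyme that begins glutathione synthesis, gave 0.96 for tMCAO against sham (SE 0.42, edgeR adjusted p = 0.335). Its sham libraries held 58.6, 51.6 and 16.8 CPM, so sham replicate 3 stood apart (0.58 without it), and an opposite-strand row, Gm17494, overlaps it with 38910 counts beside 40729, which makes its level uncertain. Txnrd1, a thioredoxin reductase, gave 0.85 for tMCAO against sham (SE 0.31, edgeR adjusted p = 0.277), and 0.49 without tMCAO replicate 3. Slc7a11, which imports cystine for glutathione, had 47.3 ± 5.82, 88.1 ± 34.1 and 75.2 ± 37.9 CPM (SD, n = 3 each), with overlapping groups. In these antioxidant genes celastrol replicate 2 was again the lowest celastrol library: it had 3.68 CPM of Nqo1, 53.9 of Gclm, 61.2 of Txnrd1 and 38.4 of Slc7a11.

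**Figure D4:**
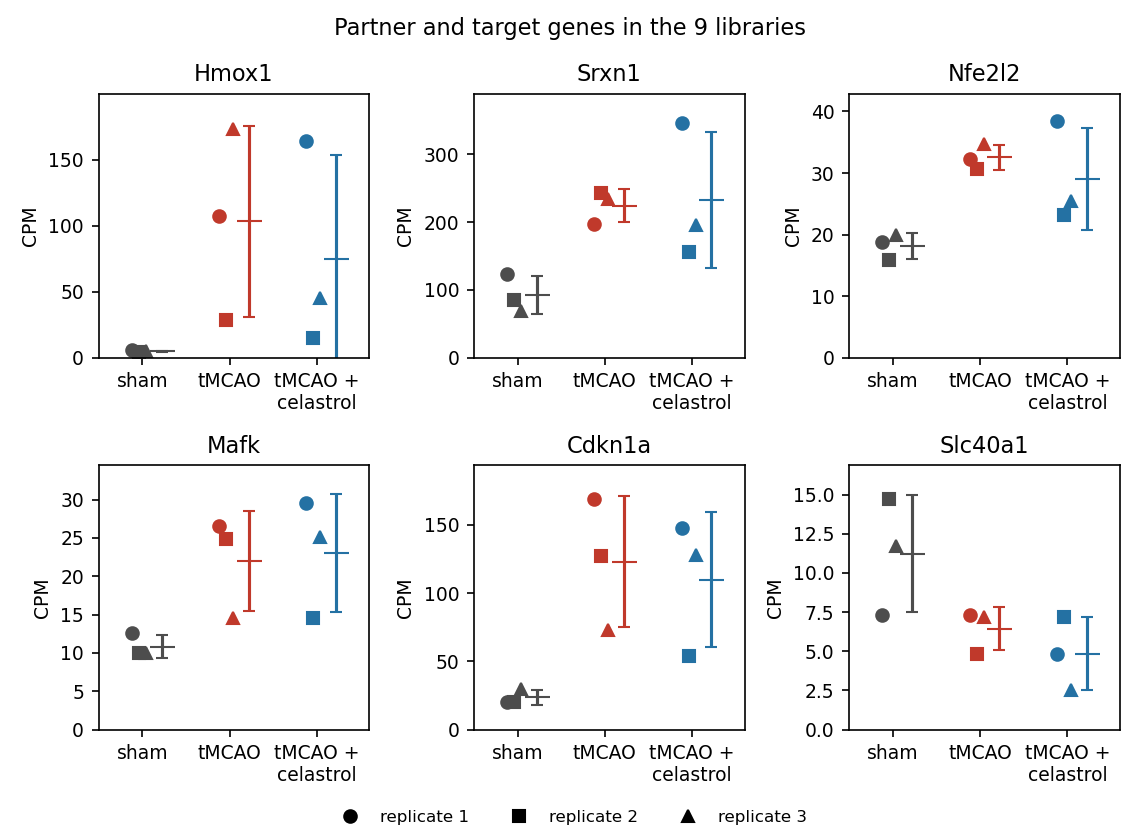
CPM of 6 partner and target genes in each library, by group, with the mean and SD of 3 libraries beside the points (the lower end of the celastrol bar of Hmox1 runs below 0 and is not drawn). In Hmox1, Srxn1, Nfe2l2, Mafk and Cdkn1a every tMCAO and celastrol library lies above sham and celastrol replicate 2 (square) is the lowest celastrol library, while in Slc40a1 that library is the highest of its group.

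The genes that remove BACH1 had values close together in the 3 groups. They include Fbxo22 and Fbxl17, which mark BACH1 for degradation, and Xpo1, which carries it out of the nucleus. None of the 8 genes of this list had every library higher in any comparison, and the medians of log2 fold change were -0.04, -0.07 and -0.09. Every library was lower in 1 of 8 for tMCAO against sham and in 2 of 8 for celastrol against sham, beside 11.1% and 5.54% of all genes. In the list of 22 genes for heme synthesis, breakdown and transport, the medians were 0.00, 0.12 and 0.14. For tMCAO against sham every library was higher in 3 (13.6%) and lower in 2 (9.09%), near the 12.4% and 11.1% of all genes. For celastrol against sham it was higher in 5 (22.7%) and lower in 1 (4.55%), beside 7.89% and 5.54%. For celastrol against tMCAO it was higher in 2 (9.09%) and lower in 0, beside 3.73% and 4.13%. Apart from Hmox1, the largest separated differences were in Hp, haptoglobin, which binds free hemoglobin, and in Cd163, the macrophage receptor for that complex. Hp was at 0.254 ± 0.278 CPM in sham, 1.55 ± 0.481 in tMCAO and 1.18 ± 0.434 with celastrol (SD, n = 3 each), with log2 fold changes against sham of 2.61 (SE 0.75) and 2.22 (SE 0.74) and edgeR adjusted p = 0.196 and 0.424. DESeq2 called the first. Its sham counts were 10, 3 and 33, and without sham replicate 3 the values were 3.98 and 3.58. Cd163 was at 2.54 ± 0.417, 4.40 ± 1.06 and 5.14 ± 2.09 CPM, with 0.79 (SE 0.33) and 1.02 (SE 0.33) and edgeR adjusted p = 0.315 and 0.405, the second 0.63 without celastrol replicate 3.

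The lymphocyte genes tied to BACH2 were mostly too low to test. Of the 15 genes on the list, 7 did not reach the filter: Prdm1, Irf4, Batf, Pax5, Foxp3, Il2ra and Ccr4. Prdm1, the plasma cell regulator that BACH2 represses in B cells, held 50, 62 and 63 counts in sham, 137, 84 and 81 in tMCAO and 102, 71 and 15 with celastrol. Its tMCAO counts were all above sham, its celastrol counts ran from the lowest of the 9 to above sham, and it had no test. Ccr4 had 0 counts in every library. Among the 8 tested, Cdkn1a, which encodes the cell cycle inhibitor p21, had 23.6 ± 5.56 CPM in sham, 123 ± 48.0 in tMCAO and 110 ± 49.6 with celastrol (SD, n = 3 each). Its log2 fold changes against sham were 2.38 (SE 0.42, edgeR adjusted p = 0.0994) and 2.22 (SE 0.42, adjusted p = 0.146). DESeq2 called both, and so did edgeR without celastrol replicate 2. The list's medians were 0.12, 0.08 and 0.18. Every library was higher in 2 of 8 in both comparisons with sham, beside 12.4% and 7.89% of all genes. It was lower in 1 of 8 for tMCAO against sham and in 0 for celastrol against sham, beside 11.1% and 5.54%.

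Of 10 other BTB proteins, Zbtb16 was the 1 listed gene that differed by at least 0.5 on the log2 scale without overlap between celastrol and tMCAO. Zbtb16, a BTB zinc finger factor, had 45.4, 31.0 and 35.5 CPM in sham, 65.6, 58.5 and 26.0 in tMCAO and 80.7, 81.1 and 92.6 with celastrol, replicate 2 included. The log2 fold change was 0.76 against tMCAO (SE 0.30, edgeR adjusted p = 0.976) and 1.18 against sham (SE 0.31, adjusted p = 0.292), and DESeq2 called the second. The first was 0.45 without tMCAO replicate 3. Bcl6b, a relative of the repressor BCL6, gave 1.35 (SE 0.44) against sham for tMCAO and for celastrol, with edgeR adjusted p = 0.230 and 0.410, the second 0.86 without celastrol replicate 1. Zbtb18, a transcription repressor that acts in neuronal development, had 349, 192 and 168 CPM in sham and 124, 155 and 111 in tMCAO. The log2 fold change was -0.86 (SE 0.29, edgeR adjusted p = 0.240), and -0.47 without sham replicate 1. The list's medians were -0.13, 0.10 and -0.06.

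Markers of cell types that could hold Bach transcripts also differed between libraries. Summed CPM of 8 neuronal markers was 6857 to 7538 in sham and 5378 to 6316 in tMCAO, and with celastrol it was 5471, 8584 and 5766. Celastrol replicate 2 had the highest neuronal sum of the 9 libraries and 2.52 CPM of Bach2. Excitatory markers ran from 3108 to 4665 in sham, 2667 to 2901 in tMCAO and 2780 to 5530 with celastrol, and inhibitory markers from 983 to 1194, 911 to 1189 and 863 to 1122. Markers of B cells ran from 25.3 to 35.8 in sham, 10.7 to 44.9 in tMCAO and 9.34 to 23.1 with celastrol, with the defining gene Ms4a1 at 0 counts in the sham and celastrol libraries. T cell markers ran from 3.87 to 15.7, 3.33 to 13.1 and 3.34 to 4.05, with Cd3d at 0 counts in all 9 libraries.

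**Figure D5:**
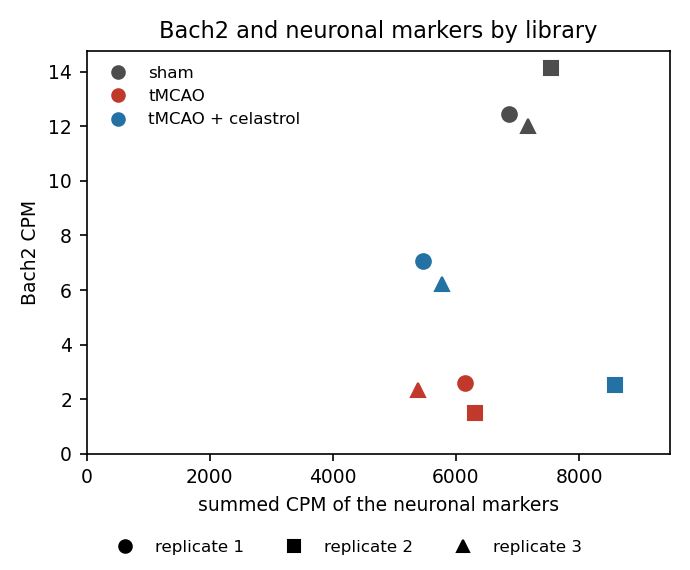
Bach2 CPM (vertical axis) against the summed CPM of 8 neuronal markers (horizontal axis) in each library, coloured by group, with the marker shape giving the replicate number. Sham libraries sit at the upper right and tMCAO libraries at the bottom, and celastrol replicate 2 has the highest neuronal sum, 8584 CPM, with Bach2 at 2.52 CPM.

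Summed markers of macrophages and monocytes, and of neutrophils, were higher in every tMCAO and celastrol library than in any sham library. The sum of 10 macrophage and monocyte markers was 19.2 to 20.3 CPM in sham, 38.8 to 151 in tMCAO and 36.1 to 86.2 with celastrol, and that of 8 neutrophil markers was 7.05 to 8.28, 21.8 to 25.6 and 21.5 to 38.6 CPM. Single markers differed: Msr1 had means of 0.0923, 19.3 and 13.5 CPM in sham, tMCAO and celastrol, while Ms4a7 had 0.203, 0.222 and 0.216 and Csf3r 6.42, 7.87 and 6.65. Ly6g, Cxcr2, Retnlg and Plac8 were at 0 counts in sham, and Ly6g also in tMCAO. Microglial markers overlapped between groups (219 to 263, 177 to 320 and 208 to 296 CPM). Endothelial markers were 175 to 191, 199 to 287 and 192 to 349 CPM, and astrocyte markers were 3510 to 4308, 2786 to 3403 and 3194 to 3892 CPM. The astrocyte sum rests largely on Slc1a2, with means of 3084 CPM in sham and 2184 in tMCAO. In mean CPM Slc1a2, Slc1a3 and Gja1 were lower in tMCAO than in sham, while Aqp4, Aldh1l1 and Gjb6 were higher. Oligodendrocyte markers overlapped widely, at 2466 to 4142, 2688 to 4240 and 2341 to 4591 CPM. Erythrocyte markers, which bear on heme, were 175 to 322, 106 to 556 and 68.4 to 92.9 CPM. Region markers varied within groups: striatal sums ran from 206 to 1221 in sham, 234 to 753 in tMCAO and 165 to 361 with celastrol, thalamic ones from 95.1 to 337, 149 to 744 and 160 to 464, and hippocampal ones from 140 to 232, 229 to 301 and 136 to 301. The part of these cell types and regions in the levels of Bach1, Bach2 and their targets was not tested.

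The genes whose log2 CPM ran most like each member over the 9 libraries are given as a description, since the libraries share groups and any gene that differs between sham and tMCAO scores high. For Bach1 the 5 highest were Hspb1 (r = 0.98, rho = 0.93), Trim56 (0.98, 0.98), Cd109 (0.97, 0.93), Rela (0.97, 0.97) and Bdkrb2 (0.97, 0.97). Hspb1, a small heat shock protein gene, had 5.08 ± 1.10 CPM in sham, 60.3 ± 40.0 in tMCAO and 39.1 ± 30.6 with celastrol, and Rela, which encodes the p65 subunit of NF-kappa-B, had 15.0 ± 0.954, 26.8 ± 4.63 and 24.2 ± 4.80 (SD, n = 3 each). The 3 lowest were Siglech (-0.97, -0.92), a microglial lectin gene with 4.52 ± 0.653, 2.51 ± 0.360 and 3.12 ± 1.29 CPM, Zfp772 (-0.97, -0.90) and Trappc2 (-0.96, -0.93).

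For Bach2 the 5 highest were Ppp1r16b (r = 0.97, rho = 0.93), Ppp2r3d (0.96, 0.98), Ptgr2 (0.96, 0.87), H4c14 (0.94, 0.93) and Fam20a (0.94, 0.93). Their levels differed less than that of Bach2: Ppp1r16b, a regulatory subunit of protein phosphatase 1, had 169 ± 4.89 CPM in sham, 120 ± 3.09 in tMCAO and 142 ± 21.0 with celastrol (SD, n = 3 each). Fam20a had 12.4 ± 0.849, 7.62 ± 1.15 and 10.4 ± 1.37 CPM. The 3 lowest were Zfp747 (-0.93, -0.88), Eif3e (-0.91, -0.85) and Blmh (-0.91, -0.93), of which Eif3e, a subunit of translation initiation factor 3, had 70.3 ± 1.46, 86.5 ± 1.85 and 80.3 ± 3.32 CPM.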

How the data were processed

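Per the labels' protocols, total RNA was depleted of ribosomal RNA and sequenced as paired ends. The authors deposited 1 table of 55385 genes with an estimated count and an FPKM value per gene and library. The build was mm10 and the tools StringTie 1.3.4d, HISAT2 2.0.4, cutadapt 1.9, DESeq2 and edgeR, per the submitters' processing notes. The sources used here give neither settings nor strandedness, so overlapping genes cannot be told apart by strand. All per-sample columns were mapped by name. For 118 symbols with several rows, the row with the highest mean was used.

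The deposited counts, whole numbers, were fitted with edgeR 4.0.16 (R 4.3.3) over all 9 libraries, with 1 mean per group, TMM scaling and genes of at least 0.5 FPKM in at least 3 libraries. The common dispersion was 0.0963. Members, lists and tests were chosen with earlier results of these data known. Scripts were tested on simulated data.

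Genes were named as follows: Bach1, Bach2, the CNC and small Maf list, Hmox1, Fth1, Nqo1, Gclm, Slc7a11 and Prdm1; in each comparison up to 12 listed genes whose groups did not overlap and whose log2 fold change was at least 0.5; and the 5 highest and 3 lowest by Pearson's r of log2 CPM (prior count 2). Named genes whose groups overlap are given by level only, a restriction set after their fold changes were seen. Alternatives were other scalings, filters, DESeq2 1.42.0, limma 3.58.1 on log2(FPKM + 0.1, 0.5 or 1), the newer quasi-likelihood form, fits of 2 groups, a replicate block and leaving out each library; leaving out celastrol replicate 2 from the counts of separated genes was added after the data were seen.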

Additional observations from a re-analysis of the deposited data

How the results depend on the processing

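Bach2 kept its direction in all 3 comparisons under every alternative run, and Bach1 in both comparisons against sham. Bach1 for celastrol against tMCAO turned from -0.14 to 0.0843 without celastrol replicate 2 and to 0.0252 without tMCAO replicate 1; leaving out each library gave -0.28 to 0.08. The pseudocount of limma on log2(FPKM + 0.1, 0.5 and 1) shrank Bach2 to -2.04, -1.20 and -0.81 for tMCAO against sham, to 0.46 (0.5) and 0.29 (1) for celastrol against tMCAO and to -0.52 (1) for celastrol against sham.

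Counts of called genes depended on the tool. For tMCAO against sham, where edgeR called 0, DESeq2 called 836, limma with 0.1 called 3, the newer quasi-likelihood form 2 and the fit of 2 groups 30; leaving out each library gave 0 to 91, the most without celastrol replicate 2, and 13 without sham replicate 1. For celastrol against tMCAO, DESeq2 called 19, and leaving out each library gave 0 to 2. For celastrol against sham, where edgeR called 1, DESeq2 called 380, a minimum of 1 FPKM left 2, no filter 3, limma 6 (0.1) and 0 (0.5), the newer form 6 and the fit of 2 groups 4; leaving out each library gave 0 to 46, the most without celastrol replicate 2. Of listed genes DESeq2 called 9 and 6 in the comparisons against sham, and leaving out each library gave 0 to 1 in both, the 1 being Cdkn1a without celastrol replicate 2. The cause was not tested.

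With the replicate number as a block (replicate block) 51 genes were called between tMCAO and sham and 22 between celastrol and sham. Deviations of same-numbered libraries correlated at -0.16 to 0.20 over 9 pairs, and of others at -0.26 to 0.23. With 3 libraries per group, these overlapping ranges cannot show whether the numbers pair the libraries.

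Of the named genes whose groups overlapped and whose fold changes are therefore not given, the sign changed under at least 1 alternative in 1 of 6 for tMCAO against sham, 7 of 12 for celastrol against tMCAO and 3 of 7 for celastrol against sham.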

Other observations

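An antisense gene, Bach2os, lies inside Bach2 at chr4:32559680-32571662 on the minus strand. It held 0, 4 and 4 counts in sham, 18, 16 and 18 in tMCAO and 15, 9 and 38 with celastrol, all too low to be tested, with sums of 8, 52 and 62. Its counts were higher in every tMCAO and celastrol library than in any sham library. Among tested genes, every library was higher in 12.4% for tMCAO and 7.89% for celastrol, each against sham. At counts this low, nothing is read from the opposite direction of Bach2. Of the 2183 exonic bases of Bach2os, 537 are shared with exons of Bach2. Without strand the reads of the genes cannot be told apart there. Bach2it1, a noncoding gene in an intron of Bach2, had 0 counts in all 9 libraries.

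The nearest tested protein-coding neighbours of the members, chosen by distance, are given by level, with no test. Around Bach2, Map3k7 (a kinase of inflammatory signalling, 215 kb away) had 87.8 ± 7.75 CPM in sham, 85.0 ± 13.1 in tMCAO and 90.3 ± 4.73 with celastrol, and Casp8ap2 (29.3 kb away) had 14.9 ± 4.13, 15.4 ± 1.69 and 14.5 ± 1.41 CPM (SD, n = 3 each). Mdn1 (71.0 kb away) had 95.9 ± 9.54, 77.4 ± 7.33 and 81.4 ± 13.6 CPM. Around Bach1, Cct8 (a chaperonin subunit, 203 kb away) had 174 ± 8.23, 194 ± 6.56 and 164 ± 16.4 CPM, and Grik1 (a kainate receptor subunit, 163 kb away) had 14.6 ± 4.88, 14.3 ± 1.53 and 13.3 ± 5.14 CPM.

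Nfe2l1 fell into 2 levels that did not follow the groups. It had 72.9 to 80.2 CPM in sham replicate 2, tMCAO replicates 1 and 3 and celastrol replicate 3, and 367 to 420 CPM in the other 5 libraries. No gene that overlaps it held counts.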
